A study of Mus musculus with 10 samples.

Results

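Compartment markers of the mouse hair follicle were followed in epidermal keratinocytes with and without RhoA, a small GTPase of the actin cytoskeleton. The 8 markers were chosen by name (Lgr5, Lgr6, Lrig1, Cd34, Plet1, Sox9, Nfatc1 and Gata6), and every probe set that the platform annotation gives to 1 of these symbols alone was taken. That gave 22 of the 45037 probe sets on the array. The 10 arrays formed 4 groups: 3 cultured KO, 3 cultured control, 2 fresh KO and 2 fresh control. KO cells had the genotype RhoA fl/fl K5 cre and controls, titled wildtype, RhoA fl/+ K5 cre, so every array comes from cells with the K5-driven Cre, and the controls keep only 1 unfloxed RhoA allele. The K5 promoter is active in basal epidermal cells and in the outer root sheath of the follicle, where several of these markers are found. Cultured arrays came from primary keratinocytes and fresh arrays from keratinocytes taken straight from epidermis. The titles call the replicates biological, and the labels name no animals, ages or pools. Each p-value reflects only how much the samples of a group varied, and whether that is spread between animals is not known.

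The hair follicle holds several pools of stem and progenitor cells, arranged along its length. The bulge, at the base of the permanent part, is marked in mouse by the surface sialomucin Cd34 and by the transcription factors Sox9 and Nfatc1, and its cycling lower part by Lgr5, a receptor for R-spondins, which strengthen Wnt signals. Above it lie the isthmus, marked by the related receptor Lgr6 and the surface protein Plet1, and the junctional zone near the sebaceous gland, marked by Lrig1, a membrane protein that restrains ERBB receptors. Gata6, a zinc finger transcription factor, marks the duct of the sebaceous gland. In bulk RNA, fewer cells of a type and less RNA per cell cannot be told apart.

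The fresh and cultured arrays were not on 1 scale: the median intensity was 7.75 to 8.0 on cultured arrays and 64.1 to 64.8 on fresh arrays. Low values on the cultured arrays barely varied. The 21500 probe sets that lay below the array median on every cultured array had a median SD of 0.013 on the log2 scale over the 6 arrays, against 0.12 for the 20964 below the median on every fresh array. Such a cultured value is therefore a floor that differs from probe set to probe set, and no fold was taken between conditions. Cultured and fresh cells were compared by rank instead, as the percentile of a probe set among all 45037 on its own array. Any processing done separately for the 2 conditions cannot be told apart from the conditions themselves. The cells matched their label: Krt5 and Krt14, the basal keratins, stood at percentile 99.6 or above on every array.

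Of the 22 probe sets, 19 stood above the array median on every fresh array, and these covered each of the 8 genes. On the cultured arrays 8 of these 19 lay below the median on every array. Of all 21022 probe sets above the median on every fresh array, 13.5% did so, which is 6.3% of all probe sets on the array. No member probe set went the other way, as 6.8% of all did, but the 19 above the median in fresh cells could not. Every cultured array ranked below every fresh array for 17 of the 22, where 40.0% of all probe sets did. Limma on normal scores of the ranks called 19 of the 20 member probe sets it tested, 3 higher and 16 lower in culture. It called 89.1% of all 26841 probe sets tested (45.9% higher, 43.3% lower), so a call in this comparison does not set a gene apart, and the size of the shift is given below.

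**Figure D1:**
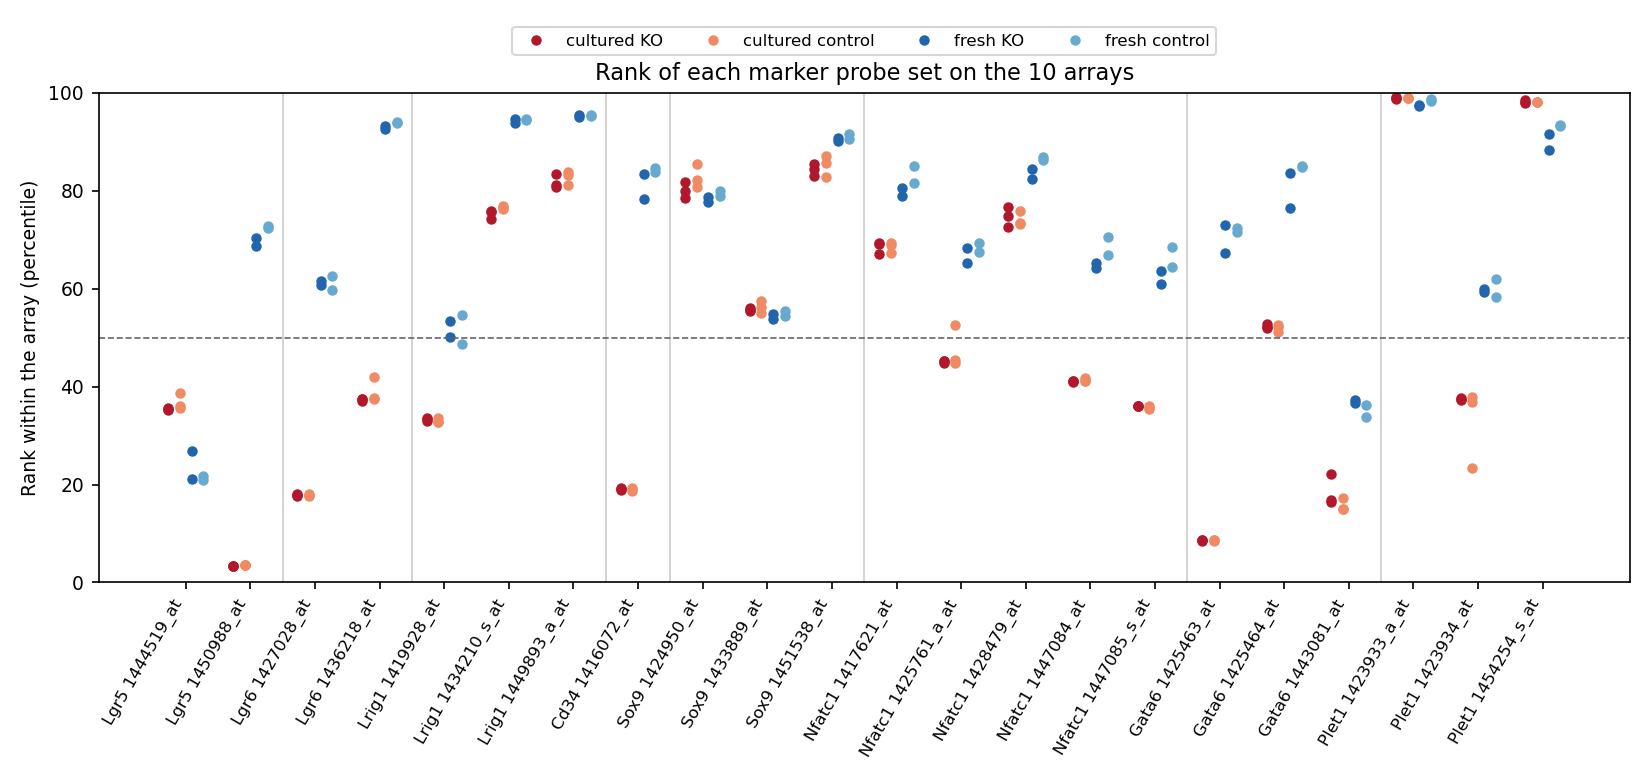
Percentile rank of each of the 22 marker probe sets within its array, 1 point per array: cultured KO (dark red), cultured control (orange), fresh KO (dark blue), fresh control (light blue). The dashed line is the array median; Lgr5 1450988_at, Cd34 and Gata6 1425463_at lie below percentile 20 on cultured arrays and above percentile 67 on fresh arrays, while 2 Plet1 probe sets lie at about percentile 98 or higher in culture.

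The R-spondin receptors Lgr5 and Lgr6 were at the floor in culture. Lgr4, a related receptor outside the marker set, was not, at percentiles 75.6 to 82.4 there and percentiles 91.3 to 93.3 in fresh cells. Lgr5 (1450988_at) stood at percentiles 3.41 to 3.47 on cultured arrays and at percentiles 68.7 to 72.9 on fresh arrays, with 3.79 ± 0.015 intensity units in cultured KO and 3.79 ± 0.026 in cultured control (SD, n = 3 each). Only 0.402% of all probe sets lost at least as many percentile points as this one, 67.7 in the mean. The floor differs from probe set to probe set, so the size of this drop does not measure how much RNA was lost. Its other probe set, 1444519_at, stayed below the median on all 10 arrays and was not tested. It ranked the other way, at percentiles 35.1 to 38.7 in culture and percentiles 20.9 to 26.9 in fresh cells. Both Lgr6 probe sets were lower in rank in culture. The brighter, 1436218_at, stood at percentiles 37.2 to 42.0 in culture and at percentiles 92.7 to 94.1 in fresh cells, and 1427028_at at percentiles 17.7 to 17.98 and percentiles 59.8 to 62.6.

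Among the surface markers, Cd34 stood at percentiles 18.6 to 19.3 on cultured arrays and at percentiles 78.4 to 84.6 on fresh arrays, where it read 402 to 658 intensity units. The drop of 63.5 percentile points was matched or exceeded by 0.602% of all probe sets. Its size too depends on where the floor of the probe set lies in culture. Cd34 is also made by endothelial cells, mast cells and dermal fibroblasts, so their markers were read on the same arrays. Of 12 endothelial genes 1 (Eng) stood above the median on every fresh array, of 9 mast cell genes 0, and of 11 fibroblast and dermal genes 2 (Col1a2 and Vim). Of all 45037 probe sets 21022 did. Among the lower genes of these lists, picked after their values were seen, Pecam1 and Cdh5 ranked no higher than percentiles 27.6 and 27.3 on any fresh array. The mast cell protease gene Cpa3 ranked no higher than percentile 27.3 there, and the collagen gene Col1a1 no higher than percentile 36.0. The part of such cells in the Cd34 signal was not tested.

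Lrig1 was kept in culture at a lower rank. Its brightest probe set, 1449893_a_at, stood at percentiles 80.7 to 83.9 on cultured arrays and at percentiles 95.03 to 95.5 on fresh arrays, and 1434210_s_at at percentiles 74.2 to 77.0 and percentiles 93.9 to 94.8. The third probe set lay near the median in fresh cells and below it in culture.

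Plet1 was among the brightest transcripts of the cultured cells. Its probe set 1423933_a_at read 23099, 21299 and 26952 in cultured KO and 23408, 22314 and 24888 in cultured control, at percentiles 98.8 to 99.1, against percentiles 97.3 to 98.8 on fresh arrays. The probe set 1454254_s_at stood at percentiles 98.0 to 98.5 in culture and at percentiles 88.4 to 93.4 in fresh cells (limma adjusted p = 3.86e-07), and the 2 ranges did not overlap for either probe set. Ranks of cultured above all fresh arrays were found for 43.1% of all probe sets. The third probe set, 1423934_at, pointed the other way, at percentiles 23.4 to 37.9 in culture and percentiles 58.4 to 62.0 in fresh cells, so the probe sets of this gene disagree.

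The transcription factors split into 3 patterns. Sox9 stayed high in rank: 1424950_at stood at percentiles 78.5 to 85.5 in culture and at percentiles 77.8 to 79.9 in fresh cells, ranges that overlap, and 1451538_at was lower in culture, at percentiles 82.8 to 87.0 against percentiles 90.1 to 91.6. The small rise called for 1424950_at (limma adjusted p = 0.0397) was lost in control arrays alone (adjusted p = 0.0977) and in KO arrays alone (adjusted p = 0.199), and 1433889_at did not pass (adjusted p = 0.0955). Nfatc1 was read above the median in culture by 1417621_at and 1428479_at, at percentiles 67.2 to 69.4 and percentiles 72.6 to 76.8, each below its fresh range of percentiles 79.0 to 85.2 and percentiles 82.5 to 87.0. Its other 3 probe sets lay at the floor in culture, apart from 1 control array on which 1425761_a_at reached percentile 52.6. Gata6 was at or near the floor, with 1425463_at at percentiles 8.40 to 8.69 in culture and percentiles 67.2 to 73.1 in fresh cells. The brighter Gata6 probe set, 1425464_at, read 8.33 to 9.10 intensity units in culture, just above the array median, and 351 to 678 in fresh cells.

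Promoters are shown for Lgr6 and Cd34, whose probe sets all lay below the median in culture, and for Plet1, which 2 of its 3 probe sets placed near the top there. Each runs 300 bases, 250 before and 50 after the annotated start, in GRCm38.p6, 5′ to 3′ on the gene's own strand. Capitals mark matches, on either strand, to a TATA box (TATAAA), a GC box (GGGCGG) or an AP-1 site (TGANTCA). TCF/LEF (CTTTGA), TEAD (GGAATG) and NFAT core (GGAAAA) letters were searched as well and had no match in these windows.
Lgr6, chr1:135105227-135105526, minus strand: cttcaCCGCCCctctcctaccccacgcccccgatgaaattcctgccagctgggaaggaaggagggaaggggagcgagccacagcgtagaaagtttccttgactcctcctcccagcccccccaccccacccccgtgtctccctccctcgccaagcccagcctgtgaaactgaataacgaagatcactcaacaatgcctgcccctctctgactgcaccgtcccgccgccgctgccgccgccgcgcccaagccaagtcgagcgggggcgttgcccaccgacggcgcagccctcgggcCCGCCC
Cd34, chr1:194938571-194938870, plus strand: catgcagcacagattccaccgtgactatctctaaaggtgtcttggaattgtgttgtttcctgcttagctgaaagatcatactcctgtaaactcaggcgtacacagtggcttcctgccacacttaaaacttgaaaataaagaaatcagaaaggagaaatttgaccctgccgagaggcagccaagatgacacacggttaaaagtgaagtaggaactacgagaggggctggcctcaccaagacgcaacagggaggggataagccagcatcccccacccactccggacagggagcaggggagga
Plet1, chr9:50494275-50494574, plus strand: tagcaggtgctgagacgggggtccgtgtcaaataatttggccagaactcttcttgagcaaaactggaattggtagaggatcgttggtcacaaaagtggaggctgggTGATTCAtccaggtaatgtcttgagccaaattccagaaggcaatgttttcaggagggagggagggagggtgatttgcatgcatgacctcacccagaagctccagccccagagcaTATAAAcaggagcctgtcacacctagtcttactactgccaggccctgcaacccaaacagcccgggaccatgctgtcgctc
The Lgr6 window held 2 GC box matches and 24 CpG dinucleotides, more than in 80.0% of the 32851 promoters in the table. The Cd34 window held none of the motifs and 7 CpG, the median of all promoters. The Plet1 window held a TATA box starting 30 bases before the annotated start and an AP-1 match starting 144 bases before it, with 5 CpG. A TATA box match was found in 13.6% of all promoters, an AP-1 match in 7.81% and a GC box match in 35.7%. TEAD letters were found in 14.7% and NFAT core letters in 23.4%, and TCF/LEF letters in 5257 of the 32851. A match is a string of letters and was not tested as a binding site.

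Other genes of the follicle compartments were read for comparison by 1 probe set each. Of 23 bulge genes, 23 stood above the median on every fresh array and 6 of them below it on every cultured array. These 6 were Krt15, Cd200, Fgf18, Hmcn1, Tbx1 and Krt24. The share was 13.5% of all probe sets above the median on every fresh array. That share counts every probe set, whereas a list gene is read by its highest-ranking one, so they are not like for like. Krt15, the keratin used as a bulge marker, stood at percentiles 3.35 to 19.6 in culture and at percentiles 99.7 to 99.8 in fresh cells. Krt79, which marks the upper follicle, stood at percentiles 19.0 to 20.0 in culture and at percentiles 99.5 to 99.7 in fresh cells, and 2 of 11 upper follicle genes fell below the median this way. Of the 10 basal keratinocyte genes 0 did, and of the 12 suprabasal genes 1 (Tgm3). Lists outside the stem compartments lost members too: 5 of the 10 inner sheath, matrix and hair shaft genes above the median on every fresh array, 3 of 7 sebaceous gland genes, 2 of 9 outer root sheath genes and 6 of 7 Langerhans cell and myeloid genes. None of the 18 Wnt and R-spondin genes nor of the 9 LRIG and ERBB genes lay below the median on every cultured array. Of the 20 Wnt and R-spondin genes tested, 17 were called lower in rank in culture, beside 43.3% of all probe sets tested. That share too counts every probe set and is not like for like with a list. Rspo3, a ligand of Lgr5 and Lgr6, stood at percentiles 47.5 to 52.1 in culture and at percentiles 66.1 to 80.0 in fresh cells.

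In cultured cells none of the markers differed between KO and control past the threshold. Limma called 0 of the 10 member probe sets that passed its filter, and 0.273% of all 22682 tested, with adjusted p from 0.360 to 0.994. No member probe set had an unadjusted p under 0.05, where 15.6% of all did. The log2 change was below 0 for 6 of the 10, beside 52.8% of all probe sets tested, and its median was -0.07, beside -0.0068. The other 12 probe sets did not pass the filter on low values and were not tested.

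Lrig1 came closest. Its probe set 1434210_s_at read 293, 374 and 355 in cultured KO and 396, 407 and 414 in cultured control, the only member probe set tested whose groups did not overlap (log2 change -0.26, SE 0.12, limma adjusted p = 0.360). Of all probe sets tested, 12.2% were lower in KO without overlap and 10.1% higher. Its brighter probe set, 1449893_a_at, read 617, 889 and 668 in cultured KO and 696, 833 and 938 in cultured control, which overlap.

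Sox9 varied more between the control arrays than between the genotypes. Its probe set 1451538_at read 959, 830 and 1097 in cultured KO and 1381, 795 and 1153 in cultured control (log2 change -0.18, SE 0.22, adjusted p = 0.739). Control replicate 1 was the highest array on all 3 Sox9 probe sets. For 1424950_at the values were 561, 498 and 713 in cultured KO and 1134, 627 and 752 in cultured control (log2 change -0.48, 95% interval -1.1 to 0.15, and -0.66 to -0.23 with 1 array left out).

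Nfatc1 and Plet1 overlapped between the genotypes. Nfatc1 (1428479_at) read 240, 333 and 402 in cultured KO and 278, 265 and 368 in cultured control (log2 change 0.08, 95% interval -0.49 to 0.65). For Plet1 (1423933_a_at) the change was 0.01 with a 95% interval of -0.23 to 0.25, so on this probe set a change beyond about 1.2-fold either way lies outside it. The interval was wider on 1454254_s_at, at -0.19 to 0.35 around a change of 0.08.

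**Figure D2:**
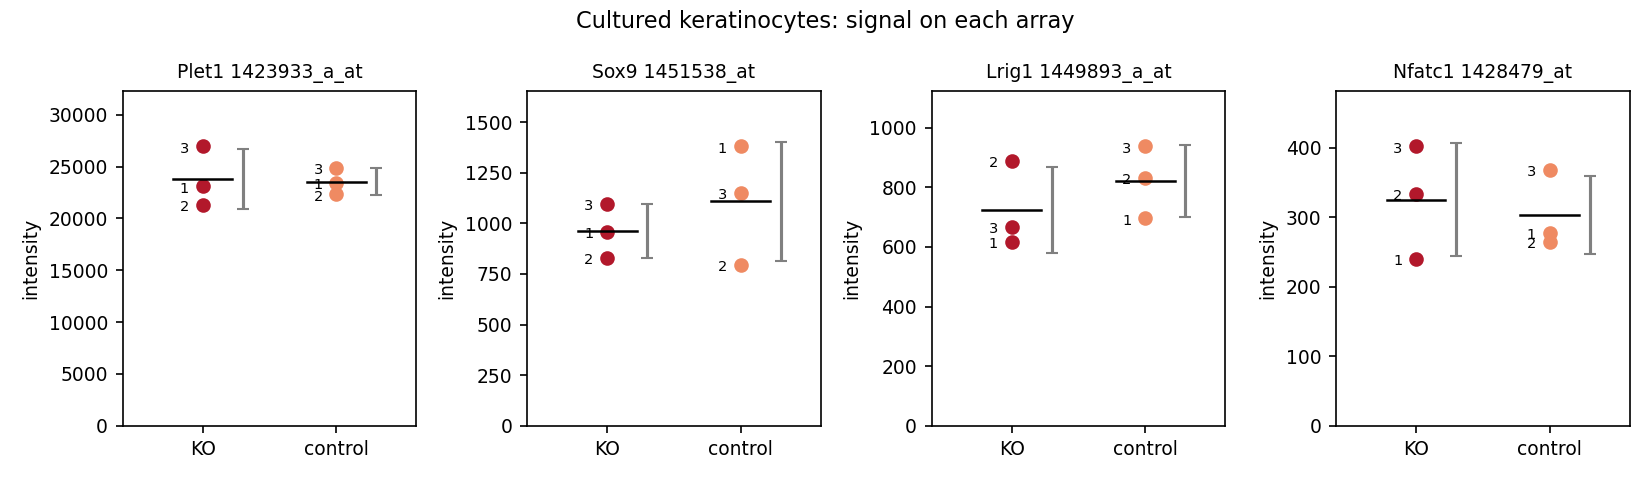
Intensity on each of the 6 cultured arrays for the brightest probe set of the 4 markers read above the floor there, KO left of control, with the replicate number beside each point, the mean as a line and the SD as a bar. The KO and control points overlap in all 4 panels.

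In fresh cells the markers read lower in KO on most probe sets, and none passed the threshold. Limma called 0 of the 20 member probe sets tested and 0.0% of all 22893, and adjusted p for the members ran from 0.274 to 0.998. Unadjusted p was under 0.05 for 4 member probe sets (2 of Plet1, 2 of Nfatc1) and for 12.9% of all. The log2 change was below 0 for 20 of the 20 tested, beside 50.1% of all probe sets tested, with a median of -0.21 beside -0.00034, and for 19 of the 20 with arrays centred on their 75th percentile, where Lrig1 1419928_at lay at 0.0050. With no filter it was below 0 for 20 of 22, and the exceptions were the 2 probe sets below the array median, Lgr5 1444519_at and Gata6 1443081_at. Both KO arrays lay below both controls on 11 of the 20, where 23.5% of all probe sets did, and no member probe set had both KO arrays above. Several of the 22 read the same gene, so they are not independent.

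Plet1 had the smallest p. Its probe set 1423933_a_at read 3617 and 3425 in fresh KO and 4824 and 5998 in fresh control (log2 change -0.61, SE 0.12, adjusted p = 0.274, 95% interval -0.91 to -0.31). The groups did not overlap. On 1454254_s_at the values were 1274 and 890.0 in fresh KO and 1609 and 1551 in fresh control (log2 change -0.57, SE 0.18, adjusted p = 0.331), and leaving out 1 array gave -0.83 without KO replicate 1 and -0.31 without KO replicate 2. The third probe set, 1423934_at, read 110 and 106 in fresh KO and 101 and 123 in fresh control, which overlap.

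Nfatc1, which holds bulge cells quiescent in mouse, read lower in both KO arrays on 4 of its 5 probe sets. The brightest, 1428479_at, gave 656 and 547 in fresh KO and 765 and 796 in fresh control (log2 change -0.38, SE 0.13, adjusted p = 0.346), and 1447084_at gave 147 and 157 in fresh KO and 181 and 227 in fresh control (log2 change -0.42, SE 0.16, adjusted p = 0.380). The probe sets 1447084_at and 1447085_s_at come from the same sequence record. On 1425761_a_at KO replicate 1, at 195, lay between the controls at 190 and 206.

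Of the R-spondin receptors Lgr5 and Lgr6, 1 probe set each read lower in both KO arrays without passing the test. Lgr5 (1450988_at) read 228 and 200.3 in fresh KO and 266 and 266 in fresh control (log2 change -0.31, SE 0.13, adjusted p = 0.406), and Lgr6 (1436218_at) read 1462 and 1566 in fresh KO and 1784 and 1742 in fresh control (log2 change -0.22, SE 0.09, adjusted p = 0.392). The groups did not overlap on either. The dimmer Lgr6 probe set overlapped, at 115 and 122 in fresh KO and 134 and 107 in fresh control (log2 change -0.02), and the untested Lgr5 1444519_at read 31.0 and 27.1 in fresh KO and 26.2 and 27.6 in fresh control.

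Cd34 and Gata6 rested on 1 KO array. Cd34 read 601 and 402 in fresh KO and 658 and 607 in fresh control (log2 change -0.36, SE 0.21, adjusted p = 0.515). Gata6 (1425464_at) read 611 and 351 in fresh KO and 678 and 659 in fresh control (log2 change -0.53, SE 0.27, adjusted p = 0.463). KO replicate 2 is the low array in both. Without it the log2 change was -0.07 for Cd34 and -0.13 for Gata6, and without KO replicate 1 it was -0.65 and -0.93. The second Gata6 probe set, 1425463_at, read 276 and 181 in fresh KO and 252 and 258 in fresh control, so its KO arrays lay on both sides of the controls.

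The brightest probe sets of Lrig1 and Sox9 overlapped between the genotypes. Lrig1 (1449893_a_at) read 2070.2 and 2197 in fresh KO and 2194 and 2160.3 in fresh control (log2 change -0.03, 95% interval -0.24 to 0.18). Sox9 (1451538_at) read 1087 and 1154 in fresh KO and 1291 and 1136 in fresh control (log2 change -0.11, 95% interval -0.39 to 0.16). On Sox9 1424950_at both KO arrays lay below both controls, at 392 and 412 in fresh KO and 432 and 450.2 in fresh control (log2 change -0.13, adjusted p = 0.648).

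**Figure D3:**
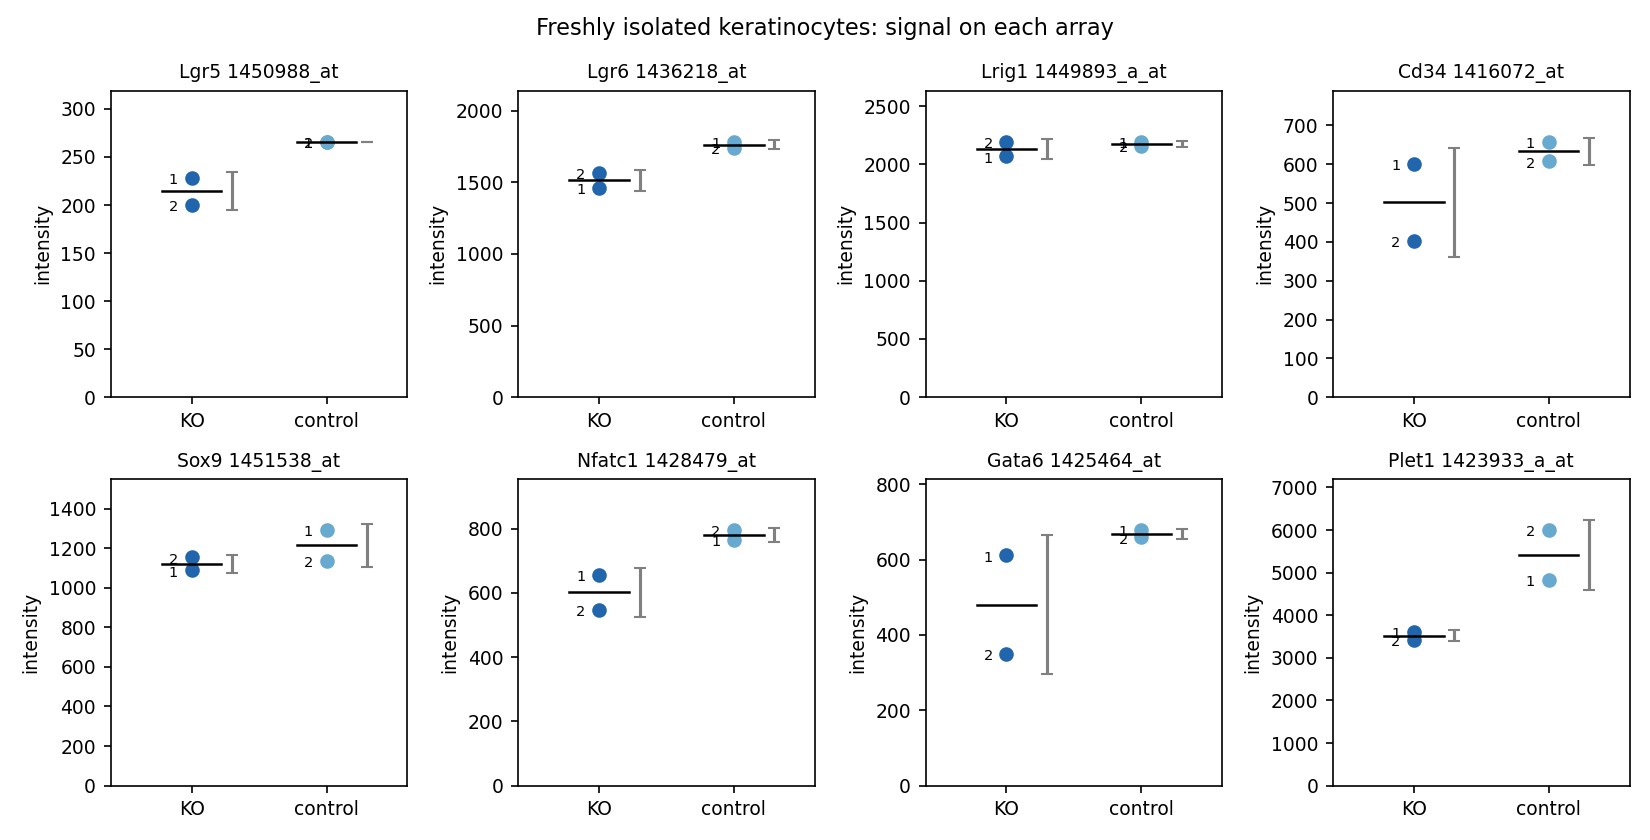
Intensity on each of the 4 fresh arrays for the brightest probe set of each of the 8 markers, KO left of control, with the replicate number beside each point, the mean as a line and the SD as a bar. Both KO points lie below both control points for Lgr5, Lgr6, Cd34, Nfatc1, Gata6 and Plet1, and the points overlap for Lrig1 and Sox9.

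**Figure D4:**
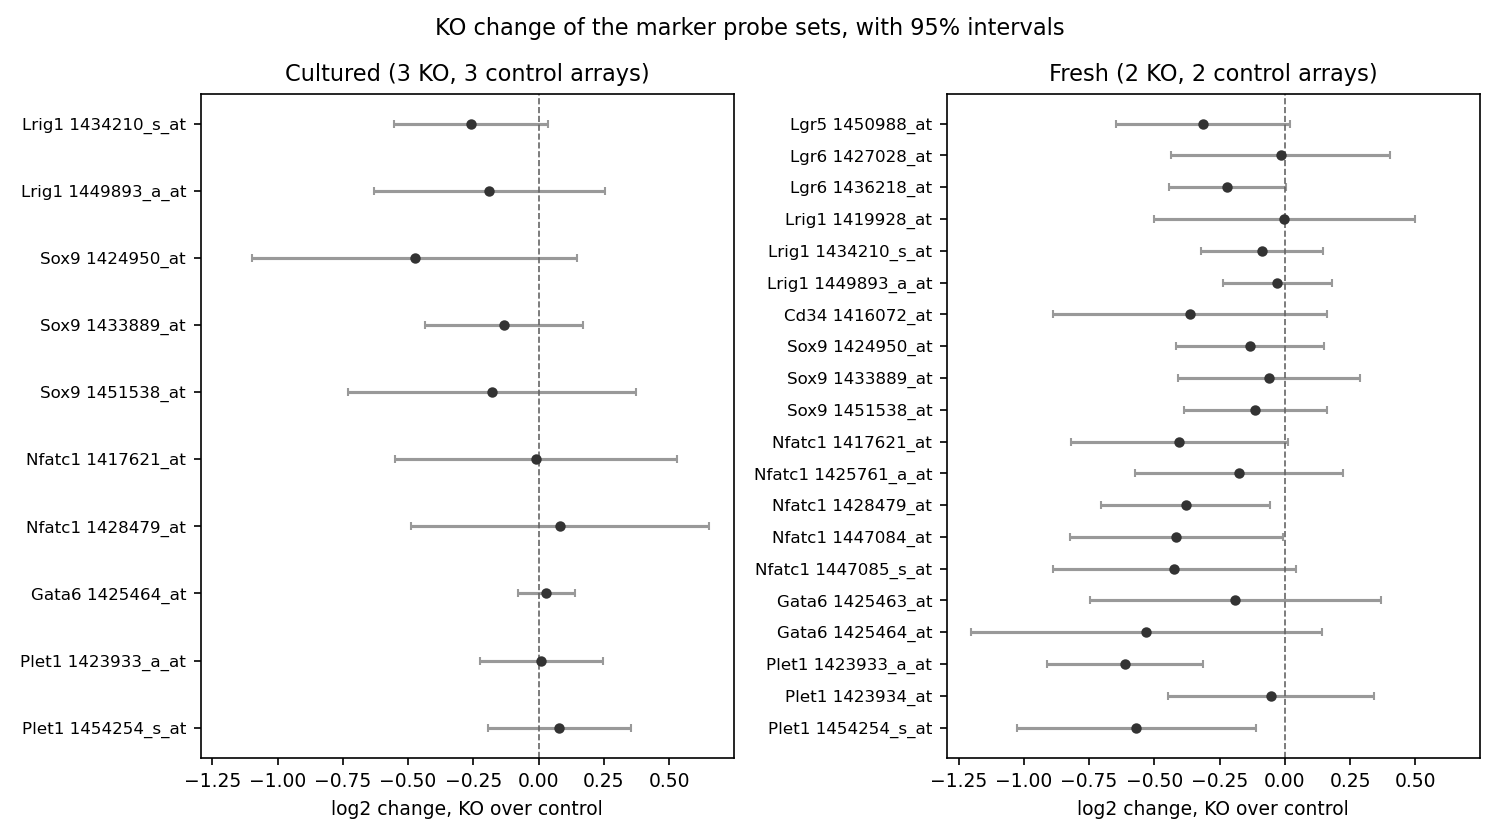
Log2 change of KO over control for the member probe sets tested, 10 in cultured cells and 20 in fresh cells, with limma's 95% interval as a bar. All 20 fresh points lie left of 0, most with intervals that reach 0, while the cultured points lie on both sides.

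For 10 member probe sets the change with RhoA loss was measured in both conditions, and the test of the difference between the changes called 0 of them, with 0.879% of all 18773 called. An unadjusted p under 0.05 was found for 2, both of Plet1. The difference, cultured minus fresh, was 0.62 on the log2 scale for 1423933_a_at (SE 0.15, adjusted p = 0.0861 from the limma fits) and 0.65 for 1454254_s_at (SE 0.21, adjusted p = 0.170). For Nfatc1 1428479_at it was 0.46 (SE 0.27, adjusted p = 0.390) and for Sox9 1451538_at -0.07 (SE 0.25, adjusted p = 0.911).

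Fresh KO replicate 2 stood apart in its inner sheath, matrix and hair shaft genes and its melanocyte genes. It also had the lowest Langerhans cell and myeloid sum and the highest sebaceous gland sum. The sebaceous gland genes summed to 12891 and 16074 in fresh KO and 14761 and 14153 in fresh control. Its bulge and upper follicle sums lay close to those of KO replicate 1, but the brightest genes weigh most in such sums. The summed intensity of 27 inner sheath, matrix and hair shaft genes was 6043 and 66481 in fresh KO and 8404 and 7137 in fresh control, with the sheath keratin gene Krt25 at 62.2 and 10946 in fresh KO and 282 and 74.7 in fresh control. The 9 melanocyte genes summed to 1602 and 4824 in fresh KO and 1401 and 1318 in fresh control. The 11 Langerhans cell and myeloid genes summed to 11209 and 5658 in fresh KO and 17154 and 13629 in fresh control, lowest on the array with the lowest Cd34, Gata6 and Lgr5. Bulge genes without the members summed to 47682 and 47027 in fresh KO and 51959 and 51601 in fresh control, and without Krt15, the brightest of them, to 30471 and 29591 in fresh KO and 31909.8 and 31360.2 in fresh control. Upper follicle genes summed to 66278 and 65968 in fresh KO and 57117 and 52865 in fresh control. Without Krt79, Cst6 and Defb6 their sums overlapped, at 17173 and 17558 in fresh KO and 17241 and 16872 in fresh control. These genes were taken out after their values were seen. Basal keratinocyte genes overlapped, at 85395 and 84714 in fresh KO and 87793 and 84962 in fresh control. Dermal papilla genes (8) summed to 379 and 379 in fresh KO and 596 and 657 in fresh control, and without Rspo3 the other 7 overlapped, at 201 and 214 in fresh KO and 194 and 206 in fresh control. The 7 T cell genes overlapped, at 4168 and 3629.9 in fresh KO and 3939 and 2553 in fresh control. The part of these cell contents in the marker values was not tested. Without KO replicate 2 the log2 change was below 0 for 19 of the 20 marker probe sets, with a median of -0.16. Without KO replicate 1 it was below 0 for 17, with a median of -0.35, and 2 probe sets were called, Gata6 1425464_at (adjusted p = 0.0228) and Plet1 1454254_s_at (adjusted p = 0.0203).

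**Figure D5:**
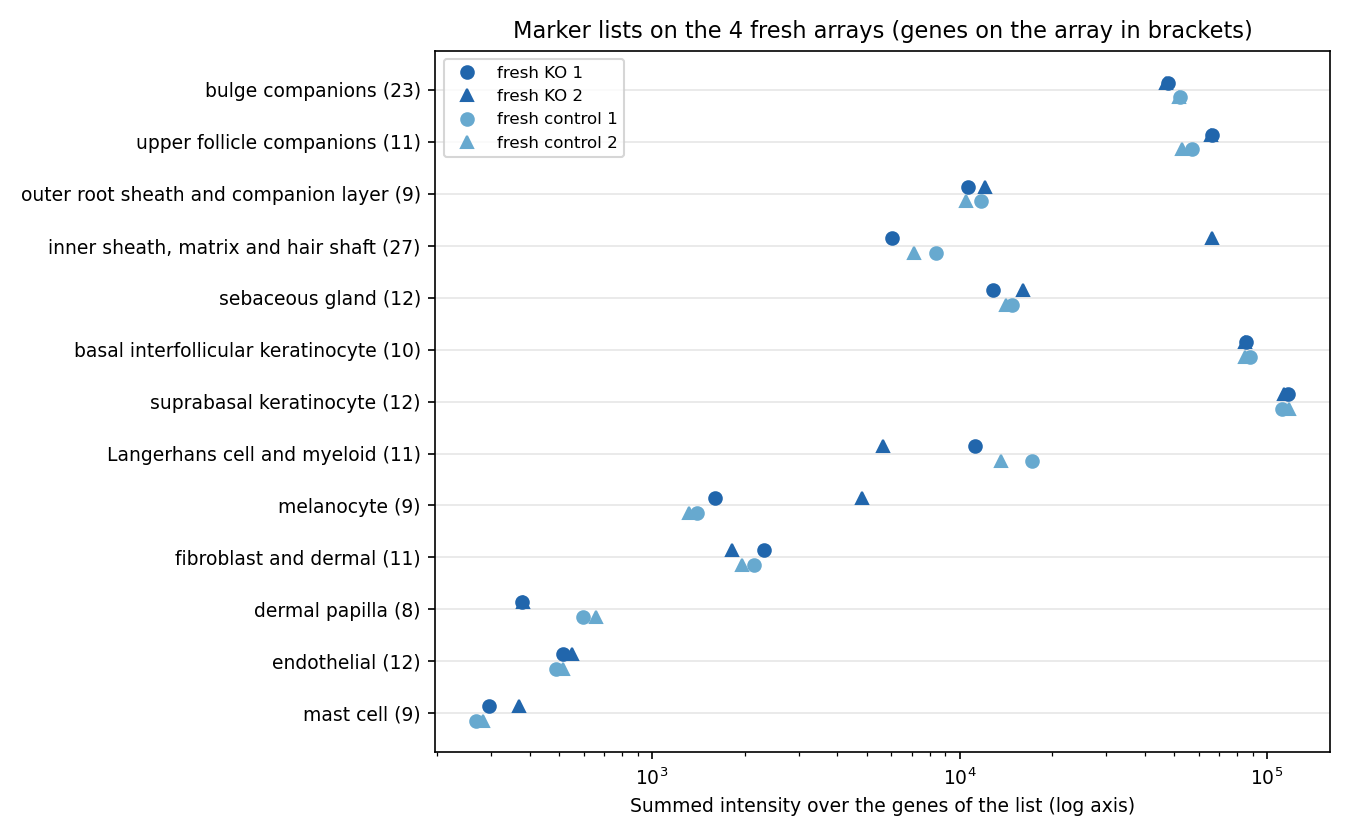
Summed intensity of 13 marker lists on each of the 4 fresh arrays, on a log axis, with KO (dark) above control (light) in each row and replicates 1 and 2 as circles and triangles. KO replicate 2 lies far right of the other arrays for the inner sheath, matrix and hair shaft list and for melanocytes.

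In the suprabasal list, 2 of 11 genes tested were called in culture, both higher in KO, Dsc1 (limma adjusted p = 0.0358) and Ivl (adjusted p = 0.0444). No gene of the follicle or pathway lists was called in KO against control, in either condition. The test of the difference, cultured minus fresh, called 0.879% of all probe sets. Of the lists it called 5 of 11 suprabasal, 1 of 10 basal keratinocyte and 2 of 5 sebaceous gland genes. The sebaceous gland genes were Scd3 (1.71, limma adjusted p = 0.0205) and Plin2 (1.03, adjusted p = 0.0182). Scd3 read 6.9 to 11.4 in culture, near the floor, and its log2 change in fresh cells was -1.96. The bulge list had 17 genes tested in culture, with 10 above 0 and a median log2 change of 0.08, and 23 in fresh cells, with 13 below 0 and a median of -0.06. Id2, an inhibitor of differentiation found in the bulge, read 1842 ± 447 in cultured KO and 4463 ± 513 in cultured control (log2 change -1.30, limma adjusted p = 0.0750). Next by p in culture came 2 genes with higher values in KO, Dkk3 (log2 change 0.65, adjusted p = 0.123) and Bmp6 (0.76, adjusted p = 0.156), and then Vdr (-0.87, adjusted p = 0.193). In fresh cells Krt15 read 17323 ± 159 in KO and 20145 ± 135 in control (log2 change -0.22, adjusted p = 0.276), and Lhx2, a bulge transcription factor, 649.6 ± 8.87 in KO and 824 ± 31.3 in control (log2 change -0.34, adjusted p = 0.318). Fst was also lower in value in fresh KO (log2 change -0.54, adjusted p = 0.288), and Col18a1 higher, at 674 ± 105 in fresh KO and 424 ± 72.2 in fresh control (log2 change 0.67, adjusted p = 0.303). Upper follicle genes gave medians of 0.03 in culture (9 tested) and 0.09 in fresh cells (11 tested). Krt79 read 16611 ± 569 in fresh KO and 12311 ± 1201 in fresh control (log2 change 0.44, adjusted p = 0.274), and Cst6 (0.45, adjusted p = 0.243) and Aqp3 (0.56, adjusted p = 0.250) also had higher values in fresh KO. Cbr2 had lower values in KO in both conditions, with log2 changes of -0.58 in culture (adjusted p = 0.154) and -0.40 in fresh cells (adjusted p = 0.276), and Tnfrsf19 in culture (-1.09, adjusted p = 0.101).

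Of the Wnt and R-spondin genes, 18 were tested in culture (12 below 0, median -0.10) and 19 in fresh cells (9 below 0, median 0.01). Rspo3, a ligand of Lgr5 and Lgr6, read 172 ± 8.34 in fresh KO and 426 ± 34.5 in fresh control (log2 change -1.31, SE 0.13, adjusted p = 0.153), without overlap. In culture Apcdd1, a Wnt inhibitor, had a log2 change of -0.57 (adjusted p = 0.178) and Nkd2 one of 0.30 (adjusted p = 0.310). LRIG and ERBB genes gave medians of -0.13 in culture (10 tested) and -0.23 in fresh cells (10 tested, 8 below 0). The ERBB ligand gene Ereg read 507 ± 19.9 in fresh KO and 1272 ± 263 in fresh control (log2 change -1.31, adjusted p = 0.228). In culture Errfi1, an inhibitor of ERBB receptors, had a log2 change of -0.74 (adjusted p = 0.113) and Lrig2 one of 0.39 (adjusted p = 0.243). NFAT and calcineurin genes gave -0.09 in culture, where 10 of 10 were below 0, and -0.01 in fresh cells. In fresh cells Nfat5 had a log2 change of -0.41 (adjusted p = 0.311) and Ppp3r1, a calcineurin subunit, one of 0.18 (adjusted p = 0.437). Rcan1, a calcineurin regulator whose transcription NFAT drives, read 350.3 ± 24.6 in cultured KO and 462 ± 179 in cultured control (adjusted p = 0.605). Sebaceous gland genes gave medians of -0.25 in culture (7 tested) and -0.10 in fresh cells (8 tested), and outer root sheath genes 0.15 (7 tested) and 0.45 (9 tested).

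The genes most like each marker over the 10 arrays, by Pearson's correlation of normal scores of the ranks, were Foxp4, Tut1 and Gsn for Lgr6 (r = 0.9996 to 0.9997), Gab2, Nr4a2 and Pla2g2f for Cd34 (0.99990 to 0.99995), and Tob2, Gnas and Baz2a for Gata6 (0.9991 to 0.9992). Lrig1 was closest to Lrp1, Dvl1 and Ndufb11 (0.998 for each), Nfatc1 to Kif1c, Xpnpep1 and Atf7ip (0.993 to 0.996), Sox9 to Brd2, Sh3pxd2b and Sf1 (0.981 to 0.985), and Plet1 to Ift122, Kif3c and B630019K06Rik (0.966 to 0.9746). These points share the split into 6 cultured and 4 fresh arrays, which most genes show, and the values are a description over these arrays. For Lgr5 the rule picked the probe set at the floor and gave no gene.

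Rhoa itself did not pass in either condition. Its brightest probe set in fresh cells, 1437628_s_at, read 7892 ± 294 in cultured KO and 10123 ± 1027 in cultured control (adjusted p = 0.156), and 4347 ± 72.2 in fresh KO and 3793 ± 377 in fresh control (adjusted p = 0.434). The other probe set tested, 1450632_at, read 10595 ± 343 in cultured KO and 13200 ± 1961 in cultured control (limma adjusted p = 0.272). In fresh cells it read 1910 ± 49.7 in KO and 1627 ± 260 in control (limma adjusted p = 0.494). Both probe sets thus had a lower mean in cultured KO and a higher mean in fresh KO. Where they lie relative to the deleted part is not known here, so they do not check the genotype labels.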

How the data were processed

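Per the labels' protocols, RNA of 10 keratinocyte samples was labelled with a 3′ in vitro transcription kit and hybridised to Affymetrix mouse expression arrays. The authors deposited 1 linear-scale intensity for every probe set on each array, and the submitters' processing notes name MAS5, with version, scaling and background steps not given in the sources used here. No detection calls were used. The number of arrays limits the precision.

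Of 45037 probe sets, 34945 had 1 gene symbol, 932 several and 9160 none, after updating symbols through Entrez identifiers with RefSeq (GRCm38.p6). The log2 intensities (no offset) were fitted with limma 3.58.1 in R 4.3.3 (eBayes with trend, 2-sided, Benjamini-Hochberg at 0.05), KO against control in each condition, over probe sets above the array median on at least 2 arrays of that condition. Differences between both effects used the combined moderated standard errors. Cultured and fresh arrays were compared by limma on normal scores of within-array ranks, with genotype as a term. The procedure was tested on simulated data.

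The named genes are the 8 members with every probe set, Rhoa, up to 4 genes of each list with the smallest p, and the 3 genes most correlated with each member. A gene in a list is read by the probe set with the highest mean rank. Lgr4, Pecam1, Cdh5, Cpa3, Col1a1, Krt5, Krt14, Krt25, Defb6, Nebl and Postn were named after their values were seen unless the rule names them. So were the genes that fell below the median in culture. The members and lists were chosen with earlier results of these data known. Alternatives were another filter, no trend, centring, an offset of 16, 1 fit over all arrays, a replicate block and leaving out each array.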

Additional observations from a re-analysis of the deposited data

How the results depend on the processing

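With 2 or 3 arrays a group, counts over all probe sets rested on single arrays. In culture the 62 called became 0 to 95 when 1 array was left out: leaving out control replicate 3 gave 0, as did either of KO replicates 2 and 3, leaving out control replicate 2 gave 1, control replicate 1 gave 26 and KO replicate 1 gave 95. They became 2 with no filter, 7 with no trend, 128 with 75th percentile centring and 395 in 1 fit over 10 arrays. In fresh cells 0 became 393 in 1 fit over 10 arrays, and 0 to 945 with 1 array left out (945 without KO replicate 1, 11 without KO replicate 2). The 165 differences between conditions became 108 with no trend, 289 with 75th percentile centring, 252 in 1 fit over 10 arrays, and 2 to 1302 with 1 array left out. The rank comparison called 40178 of 45037 with no filter.

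The count of marker probe sets called in culture was 0 under every alternative run. In fresh cells it was 0 except for the 2 called without KO replicate 1 (range 0 to 2), and for the difference 0 except for the 3 called there (range 0 to 3): Plet1 1423933_a_at (adjusted p = 0.0428) and 1454254_s_at (0.00890), and Gata6 1425464_at (0.0114).

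No paired effect was taken from replicate numbers. Same-numbered cultured arrays deviated together at r = 0.32, 0.081 and 0.25, and fresh ones at -0.055, and KO replicate 2 correlated best with control replicate 3. With the replicate block 17 probe sets were called in culture (7 of them among the 62), 0 in fresh cells and 289 for the difference, with 0 markers.

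Uncalled changes near 0 turned sign. With 75th percentile centring this held for Nfatc1 1417621_at in culture (0.0096) and Lrig1 1419928_at in fresh cells (0.0050). Leaving out 1 array gave these log2 ranges in culture: Nfatc1 1417621_at -0.17 to 0.17, Nfatc1 1428479_at -0.086 to 0.29, Plet1 1423933_a_at -0.084 to 0.086, Plet1 1454254_s_at -0.042 to 0.17. In fresh cells it gave Lrig1 1419928_at -0.20 to 0.20, Lrig1 1449893_a_at -0.073 to 0.013, Plet1 1423934_at -0.19 to 0.088, Gata6 1425463_at -0.49 to 0.12 and Lgr6 1427028_at -0.18 to 0.15. For the difference it gave Sox9 1433889_at -0.19 to 0.049 and Sox9 1451538_at -0.29 to 0.11. Without turning sign, uncalled values also moved by over 1.5 times with 1 array left out, among them fresh Plet1 1454254_s_at (-0.83 to -0.31), Cd34 (-0.65 to -0.072) and Gata6 1425464_at (-0.93 to -0.13). The cause of these shifts was not tested.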
